A study of Drosophila melanogaster with 4 samples.

Results

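The 8 Hox genes of the Antennapedia complex (*lab*, *pb*, *Dfd*, *Scr* and *Antp*) and of the bithorax complex (*Ubx*, *abd-A* and *Abd-B*) were examined among the 17023 genes counted in *Drosophila* ovaries. They were looked up by FlyBase identifier, and all 8 are listed in the count files. The set was picked because *abd-A* and *Abd-B* are higher in 1 of the genotypes, so the differences between genotypes of its members are given below as descriptions, with standard errors and without p-values. Bulk RNA-seq of poly(A)-selected RNA was available from 2 libraries of *UAS-Dicer2;NosGAL4* > *bam* RNAi ovaries and 2 libraries of *UAS-Dicer2;NosGAL4* > *bam* RNAi; *aramis* RNAi ovaries, dissected 1 to 3 days after eclosion. The *bam* RNAi construct, *UAS-Dicer2* and the *nos*-GAL4 driver, which is active in the germline, are shared by all 4 libraries. The genotypes thus differ in the *aramis* RNAi construct alone as far as the labels say. Only the titles of the libraries without *aramis* RNAi carry the tag (ii), which the titles do not explain. *bam* is needed for germline stem cell daughters to differentiate, and the comparison is between ovaries without and with *aramis* RNAi on that background. RNA came from ovaries, not from sorted cells, and the number of flies behind each library is not given in the sources used here. Nothing states that the replicates came from separate crosses, and p-values therefore measure only the spread between these libraries.

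Hox genes encode homeodomain transcription factors that give segments their identity along the anterior to posterior body axis, and their order on the chromosome follows the order of the body regions they act in. In both complexes, genes acting anteriorly lie at the *lab* or *Ubx* end. Hox proteins bind DNA together with the cofactors Extradenticle (*exd*) and Homothorax (*hth*), and the Polycomb and Trithorax groups of chromatin regulators keep Hox genes off or on after the early embryo. The gonad is linked to the bithorax complex, since somatic gonadal precursors arise in abdominal mesoderm that depends on *abd-A* and *Abd-B*. The adult ovary is enclosed by muscle layers, the peritoneal and epithelial sheaths, and is joined to a muscular oviduct.

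Total counts were between 11882367 and 13348602 per library, and the floor of 3 counts corresponded to between 0.225 and 0.252 CPM (counts scaled to a library total of the same size). This floor and the counting intervals below cover counting error only and not the spread between libraries, and PCR copies of a molecule are not separated. Across genes, replicates differed by more than counting error. Their chi-square per degree of freedom was 29.1 for >*bam* RNAi and 15.3 for >*bam* RNAi; *aramis* RNAi. Replicates correlated across genes, in log2(CPM + 1), with a Pearson r of 0.990 for >*bam* RNAi and 0.992 for >*bam* RNAi; *aramis* RNAi, and genes are not independent replicates. Germline and somatic ovary marker lists, of 13 genes each, all passed the filter on low counts. The targeted gene *aramis* (listed as *ais*) had 454 and 507 counts without *aramis* RNAi and 149 and 161 with it. *bam* had 35 and 25 against 16 and 17 counts, and ovaries without *bam* RNAi were not analysed here. The 13 germline markers had a median of -1.84 on the log2 scale against -1.37 for *ais*, and the part of the lower germline level in that of *ais* was not tested.

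Of the bithorax complex genes, *abd-A* was by far the most abundant in these ovaries. *abd-A*, which specifies the anterior abdomen, is listed as FBgn0000014. On BDGP6 (dm6) it runs from 16807214 to 16830049 of chromosome arm 3R, minus strand, with 5477 exon bases in 6 blocks that no other annotated exon overlaps. Its counts were 3443 and 3620 in >*bam* RNAi replicates 1 and 2, and 5778 and 6797 in the replicates with *aramis* RNAi. Scaled to exon length (TPM, with the same sum in every library), this was 125 and 113 TPM without *aramis* RNAi and 222 and 241 TPM with it. Both genotypes thus had *abd-A* at a level above that of most genes, higher than 91.3% of the 16647 genes with a length in >*bam* RNAi and 96.0% with *aramis* RNAi.

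*Abd-B*, which specifies the posterior abdomen and genitalia, was present at a much lower level than *abd-A*. The gene, FBgn0000015, runs from 16927212 to 16972236 of 3R, minus strand, and its 10 transcripts cover 11791 exon bases in 11 blocks. Its counts were 281 and 298 without *aramis* RNAi and 313 and 427 with it, or 4.73, 4.32, 5.58 and 7.04 TPM. The counts are per gene, so the morphogenetic and regulatory isoforms of *Abd-B* could not be separated.

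*Ubx*, which specifies the metathoracic segment and the haltere, was near the floor. The gene, FBgn0003944, spans 77.8 kb on the minus strand of 3R from 16656623 to 16734426. Its counts were 3 and 6 in >*bam* RNAi and 15 in each library with *aramis* RNAi, or between 0.139 and 0.737 TPM. Of its 4282 exon bases, 51 lie opposite the antisense RNA *asRNA:PS4*, and the strand setting of the counting is not given in the sources used here. All 4 values were below 1 TPM, although the gene lies next to *abd-A* in the complex.

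Of the Antennapedia complex genes, *Antp* alone was well above the floor. *Antp*, which acts in the mesothoracic segment and promotes leg over antennal identity, is listed as FBgn0260642 and runs from 6896253 to 6999228 of 3R, minus strand. Its counts were 381 and 412 without *aramis* RNAi and 622 and 623 with it, or 9.51, 8.87, 16.5 and 15.2 TPM. Of its 7945 bases of exon, 3978 are annotated in BDGP6 also to *CG46458* on the same strand. That identifier is not among those counted, and how reads in the shared exons were assigned is not given in the sources used here.

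The other 4 genes of the Antennapedia complex were at or near 0. *lab*, which acts in the head and midgut, had 7 and 6 counts without *aramis* RNAi and 1 and 3 with it. *pb*, required for the adult mouthparts, had 1 count in 1 library of each genotype and none in the others. *Dfd*, which acts in the mandibular and maxillary segments, had 1 count in 1 library of >*bam* RNAi. *Scr*, which acts in the labial and prothoracic segments and the salivary gland, had 1 count in 1 library with *aramis* RNAi. A count of 0 or 1 allows an upper 95% Poisson limit of 3.69 or 5.57 counts, so that these 3 genes were not detectable at this depth.

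**Figure D1:**
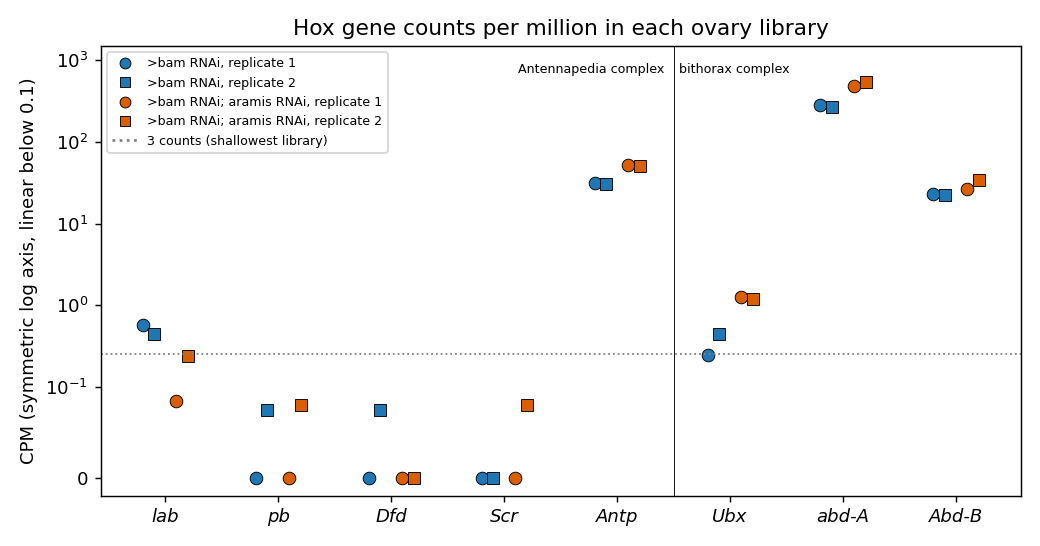
Level in CPM of the 8 Hox genes in each of the 4 libraries, on a symmetric log axis that is linear below 0.1 CPM. Points are single libraries, colors are genotypes, and the dotted line marks 3 counts in the shallowest library. *abd-A* sat between 271 and 547 CPM, *Antp* and *Abd-B* between 22.3 and 52.3 CPM, and the remaining 5 genes at or below 1.26 CPM.

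Taking more than 3 counts in each library of a genotype as detected, 4 of the 8 Hox genes were detected in >*bam* RNAi (*abd-A*, *Antp*, *Abd-B* and *lab*) and 4 in >*bam* RNAi; *aramis* RNAi (*abd-A*, *Antp*, *Abd-B* and *Ubx*). At 1 TPM in each library, 3 were detected in each genotype, the same *abd-A*, *Antp* and *Abd-B*. In >*bam* RNAi the order of TPM levels was *abd-A* at 119 ± 8.23 TPM (SD, n = 2), *Antp* at 9.19 ± 0.454, *Abd-B* at 4.52 ± 0.286, *lab* at 0.396 ± 0.0841 and *Ubx* at 0.189 ± 0.0712. With *aramis* RNAi it was *abd-A* at 231 ± 13.6 TPM (SD, n = 2), *Antp* at 15.8 ± 0.874, *Abd-B* at 6.31 ± 1.03, *Ubx* at 0.709 ± 0.0399 and *lab* at 0.130 ± 0.0865. The neighbors in each order were apart by more than their SD down to *Abd-B*, while *lab* and *Ubx* in >*bam* RNAi rested on 13 and 9 counts in all, with overlapping Poisson intervals of the counts. *abd-A* made up between 89.1% and 91.2% of the TPM of the 8 Hox genes in the 4 libraries, *Antp* between 5.76% and 6.99% and *Abd-B* between 2.28% and 3.41%. Divided by the length of the longest transcript instead, *Antp* was at 14.2 TPM and *Abd-B* at 6.20 TPM in >*bam* RNAi, and the order of these 3 genes did not change in either genotype.

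The complexes also hold genes that are not Hox genes. Between the outer ends of *lab* and *Antp*, 35 counted genes are annotated over 338 kb, and between those of *Ubx* and *Abd-B*, 12 over 316 kb. Of the 39 that are not Hox genes, 20 had no count in any library, 11 had from 1 to 9 counts summed over the libraries and 8 had at least 10. The bithorax complex held no second abundant gene, and its Hox genes took at least 99.3% of its counts in every library. The long noncoding RNA *lncRNA:iab8*, transcribed from between *abd-A* and *Abd-B* and a precursor of a microRNA that targets Hox mRNAs, had counts of 20 and 25 without *aramis* RNAi and 28 and 37 with it (log2 fold change 0.79, standard error, SE, 0.368, edgeR adjusted p = 0.117). *lncRNA:iab4* had 3, 1, 10 and 0 counts in the same order of libraries, so that its counts overlapped between genotypes.

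The Antennapedia complex also held a pair of homeobox genes, *bcd* and *zen*, that were lower with *aramis* RNAi. *bcd*, whose maternal mRNA specifies the anterior of the embryo, had counts of 140 and 161 without *aramis* RNAi and 32 and 13 with it (log2 fold change -2.48, SE 0.370, edgeR adjusted p = 0.00204). *zen*, a homeobox gene of dorsal and extraembryonic fates that arose from a Hox gene, had 101 and 98 against 12 and 14 (log2 fold change -2.67, SE 0.298, edgeR adjusted p = 7.19e-04). *bcd* and *zen* were lower in both *aramis* RNAi libraries than in either >*bam* RNAi library, while the germline markers ran from -2.59 for *rhi* to 0.47 for *tud*. *zen2* and *ftz*, the other homeobox genes of the complex, had at most 2 counts in a library. *zen* was called lower under all 10 alternatives, and the call on *bcd* was lost without either >*bam* RNAi library. The log2 fold change of *bcd* ran from -3.25 to -1.96 over these alternatives.

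Between *lab* and *pb* lies a cluster of cuticle protein genes, of which *Ccp84Ag* had counts of 17 and 21 without *aramis* RNAi and 32 and 56 with it (log2 fold change 1.47, SE 0.409, edgeR adjusted p = 0.0236). That call was lost with the libraries scaled on somatic markers (adjusted p = 0.0641) and when either >*bam* RNAi library or >*bam* RNAi; *aramis* RNAi replicate 2 was left out. *Ama*, which encodes a secreted adhesion protein, had 1 and 2 counts against 2 and 11. *lncRNA:CR44932*, next to the 3′ end of *Antp*, had 1 and 6 counts against 9 and 9, and *lncRNA:CR42651* had 4 and 4 against 2 and 0. These 3 did not pass the filter on low counts and were not tested.

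**Figure D2:**
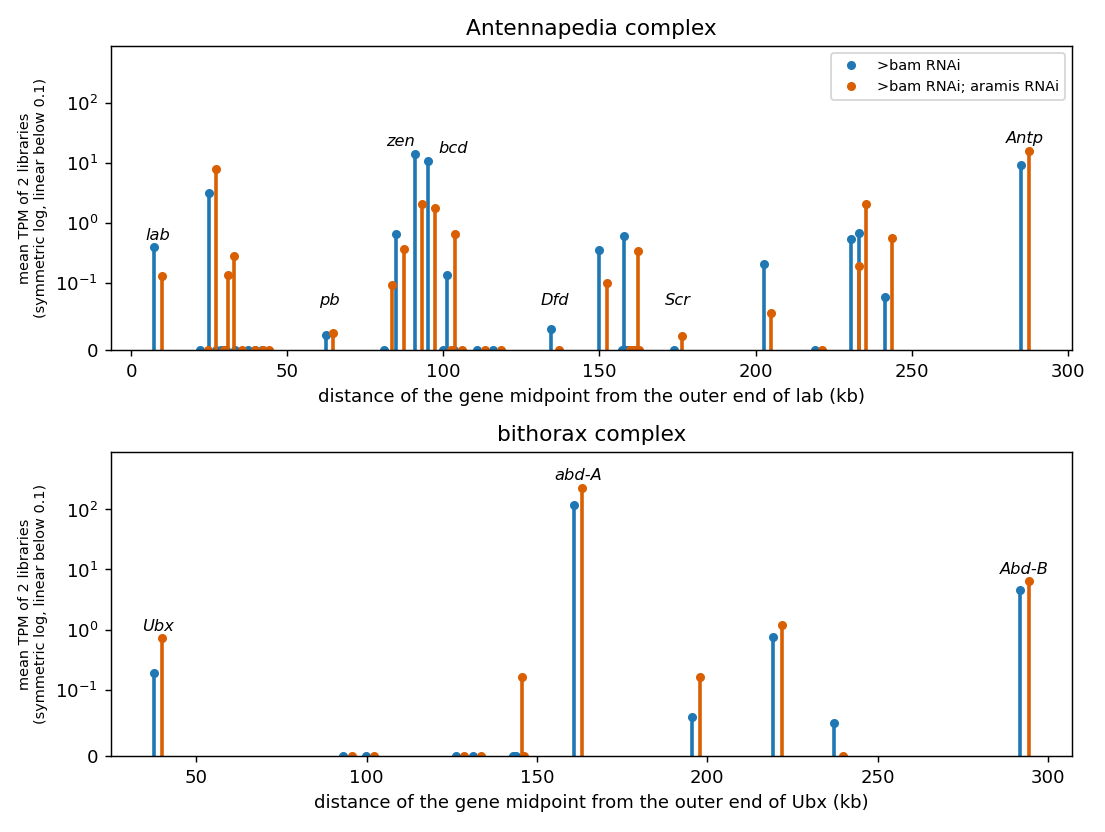
Mean TPM over the 2 libraries of each genotype for every counted gene inside the Antennapedia complex (top) and the bithorax complex (bottom), by distance of the gene's midpoint from the outer end of *lab* or *Ubx* in kb. The vertical axis is a symmetric log axis, linear below 0.1 TPM; in the bithorax complex *abd-A* stands at 119 and 231 TPM, while *zen* and *bcd* in the Antennapedia complex are at 14.5 and 10.9 TPM in >*bam* RNAi and at 2.07 and 1.82 TPM with *aramis* RNAi.

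Between genotypes, the 3 Hox genes above 1 TPM were all higher with *aramis* RNAi, *abd-A* and *Antp* by more than *Abd-B*. *abd-A* was at 1.09 on the log2 scale (SE 0.102) in edgeR with TMM normalization, and both of its *aramis* RNAi libraries, at 486 and 547 CPM, were above both >*bam* RNAi libraries, at 285 and 271 CPM. *Antp* was at 0.91 on the log2 scale (SE 0.0932), with 52.3 and 50.1 CPM against 31.6 and 30.9 CPM. The genotypes did not overlap for *Antp*, and its replicates lay closer together, relative to their level, than those of *abd-A*. *Abd-B* was at 0.61 on the log2 scale (SE 0.162), with 26.3 and 34.3 CPM against 23.3 and 22.3 CPM. Its groups did not overlap either, but the *aramis* RNAi libraries differed from each other by more than the lower of them differed from >*bam* RNAi. In bulk samples, fewer cells of a type and less RNA per cell cannot be told apart, and the same holds for more cells and more RNA.

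*Ubx*, with 9 counts in >*bam* RNAi and 30 with *aramis* RNAi, had a ratio of 3.48 in CPM (95% interval for counting error from 1.61 to 8.34). *Ubx* passed the filter on low counts only through the genotype where it is higher. *lab* went the other way, with 13 counts in >*bam* RNAi and 4 with *aramis* RNAi, a ratio of 0.322 (0.0764 to 1.04), and did not pass the filter. The interval of *lab* includes 1, so that a difference was not detectable at this depth. *pb*, *Dfd* and *Scr* were at or under the floor in both genotypes, and no fold is given for them.

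Of the 8 Hox genes, 4 passed the filter on low counts and all 4 of these were among the genes called higher at an edgeR adjusted p under 0.05, a rule that called 25.4% of the 9115 genes tested higher and 25.0% lower. All 4 were also without overlap between genotypes in normalized CPM, as were 37.2% of all genes tested in that direction and 40.0% in the other. This contrast chose the set and nothing is read from these counts. None of the 4 Hox genes had a fold above 4, and *Ubx*, at 1.97 on the log2 scale (SE 0.576), came nearest. Of the genes tested, 7.89% had a larger log2 fold change than *abd-A*, 12.5% than *Antp* and 20.6% than *Abd-B*. For *Ubx*, with its few counts, this was 0.987%. These ranks use the same contrast and are descriptions. DESeq2 called 3 Hox genes higher, without *Ubx*, beside 2101 of 13308 genes tested. With any 1 library left out, fewer of the Hox genes were called, as were fewer of all genes tested. The log2 fold change then ran from 0.98 to 1.21 for *abd-A* and 0.89 to 0.92 for *Antp*. For *Ubx* it ran from 1.62 to 2.46 and for *Abd-B* from 0.38 to 0.83.

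The size of the differences depends on the scaling. TMM normalization placed the median log2 fold change of all tested genes at -0.02, and scaling on library totals, which was added after the data were seen, shifted it by -0.19. On library totals 1684 genes were called higher and 3346 lower, against 2312 and 2278 with TMM, and *abd-A* was then at 0.89, *Antp* at 0.71, *Ubx* at 1.78 and *Abd-B* at 0.41 on the log2 scale. When the libraries were scaled to equal levels of the 13 somatic ovary markers, the median of all genes shifted by -0.46, with 908 genes called higher and 4297 lower. Under that scaling *abd-A* was at 0.64 (SE 0.180) and *Antp* at 0.45 (SE 0.199), while *Abd-B* was at 0.16 (SE 0.210). These values use the same contrast that chose the set and are descriptions. The 13 markers did not move together, and with TMM they ran from -1.08 for *tj* to 1.14 for *zfh1*.

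**Figure D3:**
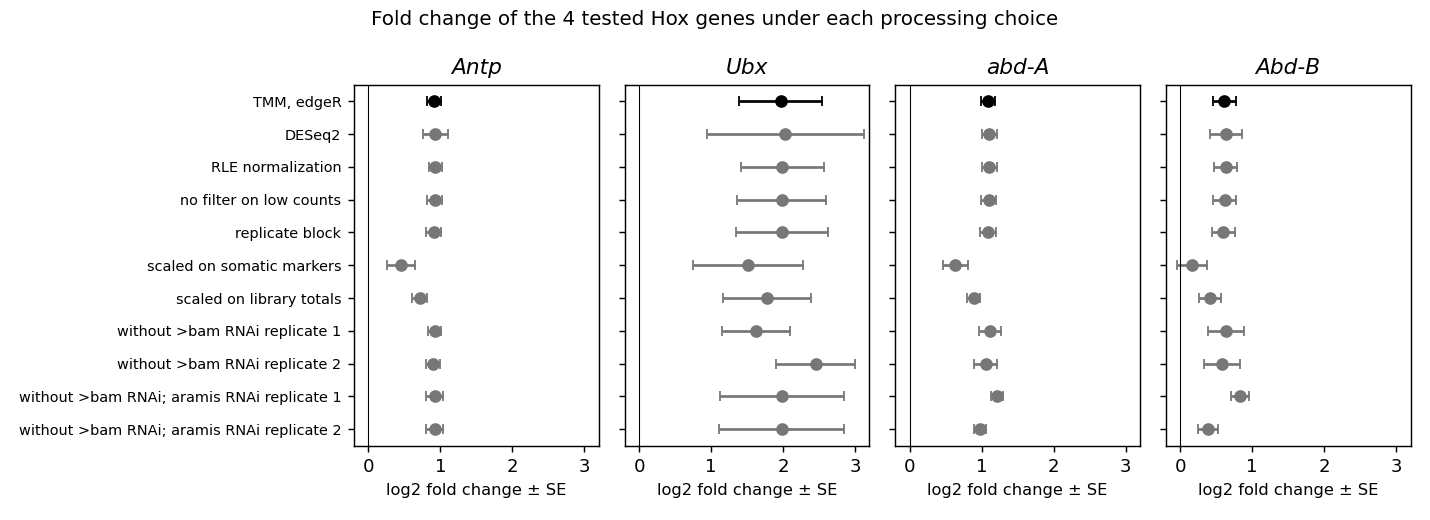
Log2 fold change, >*bam* RNAi; *aramis* RNAi over >*bam* RNAi, of the 4 Hox genes that passed the filter on low counts under edgeR with TMM (black) and under each alternative (gray). Bars are standard errors. All values are above 0, *abd-A* between 0.64 and 1.21, *Antp* between 0.45 and 0.93, *Ubx* between 1.51 and 2.46 and *Abd-B* between 0.16 and 0.83.

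Ratios within a library do not depend on the scaling between libraries. *abd-A* had 9.04 and 8.79 counts per count of *Antp* without *aramis* RNAi and 9.29 and 10.9 with it. The ratio was higher in both *aramis* RNAi libraries, but the difference between the lower of these and >*bam* RNAi was smaller than that between the *aramis* RNAi replicates. Against *Abd-B*, *abd-A* had 12.2 and 12.1 counts per count without *aramis* RNAi and 18.5 and 15.9 with it. Here the genotypes were apart by more than their replicates, with more *abd-A* per *Abd-B* in both *aramis* RNAi libraries. These ratios use the same contrast that chose the set and are descriptions.

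**Figure D4:**
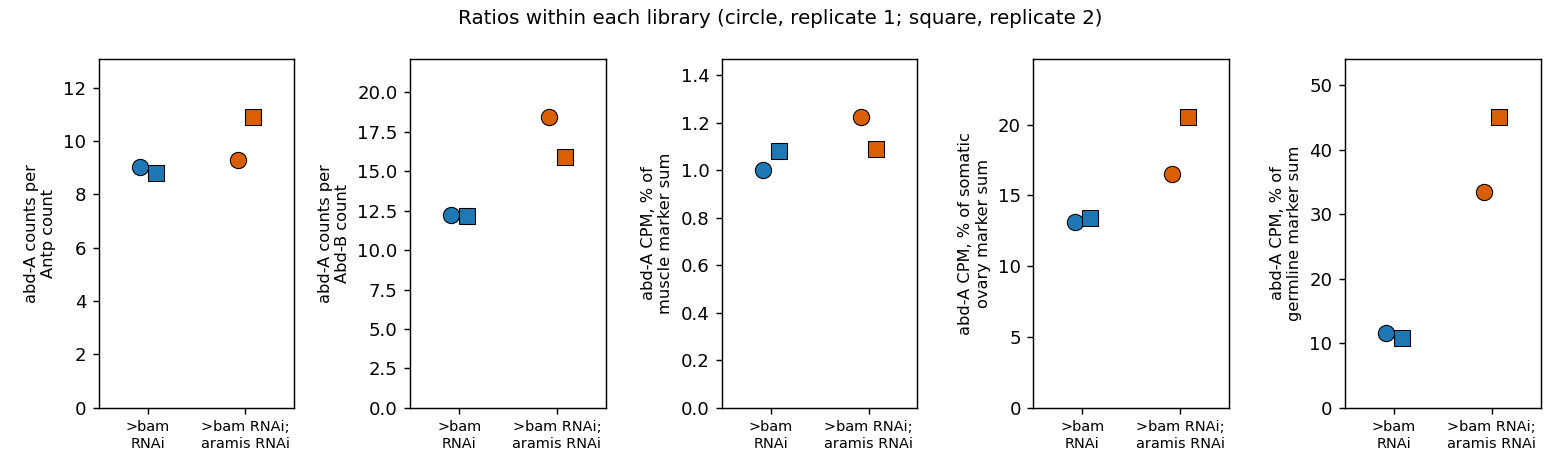
Ratios within each library, with 1 point per library and axes from 0: counts of *abd-A* per count of *Antp* and of *Abd-B*, and *abd-A* CPM in percent of the summed CPM of the muscle, somatic ovary and germline marker lists. The percent of the muscle sum lies between 1.00 and 1.23 in all 4 libraries. The percent of the germline sum is 11.5 and 10.8 without *aramis* RNAi and 33.5 and 45.1 with it. The germline sum includes *tud*, which was called higher with *aramis* RNAi.

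Markers of muscle were higher with *aramis* RNAi, as were those of the oviduct, trachea and neurons given below. The medians of these other lists, with 2, 4 and 4 genes tested, were 1.06, 0.87 and 0.85 in log2 fold change. Median values above 0 were thus seen in these short lists as well as in muscle. Over all 9115 genes tested, 25.4% were called higher and 25.0% lower. Of the 15 muscle genes listed, 14 matched an identifier and were tested, and 13 of these were called higher with *aramis* RNAi by edgeR at an adjusted p under 0.05, with a median log2 fold change of 0.94, from 0.75 for *Mlp60A* to 1.06 for *Mf*. The largest rises were those of *Mf* (1.06, SE 0.141, adjusted p = 0.0013), *Mlc2*, *Mlc1*, *up* and *Tm2*, which encode a myofilament protein, the myosin light chains, troponin T and tropomyosin. Their summed level was 28490 and 25070 CPM without *aramis* RNAi and 39670 and 50080 CPM with it, and no defining marker was at 0. *abd-A* amounted to 1.00% and 1.08% of this sum without *aramis* RNAi and to 1.23% and 1.09% with it, so that the nearest libraries of the genotypes differed by less than the replicates did. *Antp* amounted to 0.111% and 0.123% against 0.132% and 0.1001%, which overlap. *Abd-B* amounted to 0.0817% and 0.0891% against 0.0664% and 0.0686%, lower in both *aramis* RNAi libraries. Without >*bam* RNAi replicate 1 or replicate 2, the median of the 14 muscle genes was 1.03 and 0.89. Fewer of them were called in those fits, as were fewer of all genes tested. Scaled on somatic markers, 9 were called higher, with a median of 0.49, beside 908 of all 9115 genes. The part of muscle in the higher Hox levels was not tested.

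Of all genes tested, 25.4% were called higher, the share to set beside each count in this paragraph. Both listed genes of the oviduct, the octopamine receptors *Octbeta2R* and *Oamb*, were called higher. Their log2 fold changes were 1.06 and 1.07, with edgeR adjusted p-values of 3.15e-04 and 0.00198. The call on *Oamb* was lost without either >*bam* RNAi library. Their summed level was 120.8 and 114.6 CPM without *aramis* RNAi and 199.7 and 229.6 CPM with it, and both receptors are also used in other tissues. Hemocyte markers, those of blood cells, were called higher for 5 of 6 genes, with a median log2 fold change of 1.36 and a summed level of 3613 and 2938 CPM against 6885 and 7132 CPM. Fat body markers were called higher for 4 of 7, with *Lsp1beta* at 2.83, *Lsp2* at 2.24 and *apolpp* at 2.08, and a summed level of 367 and 316 CPM against 1361 and 1249 CPM. The log2 fold change of *abd-A*, 1.09, was below the median of the hemocyte markers. The median of the fat body markers ran from 0.87 without >*bam* RNAi replicate 2 and 1.03 without >*bam* RNAi; *aramis* RNAi replicate 1 to 2.07 without >*bam* RNAi replicate 1, so no order with *abd-A* is given. With either >*bam* RNAi library left out, fewer fat body genes were called, as were fewer of all genes tested. The part of these cell types was not tested either. Tracheal markers were called higher for 4 of 4 tested, with a median of 0.87 and a summed level of 107 and 92.9 CPM against 156 and 163 CPM. Neuronal markers were called higher for 2 of 4 tested, with a median of 0.85 and a summed level of 102 and 89.5 CPM against 135 and 119 CPM. Of 5 gut genes listed, 1 (*Amy-p*) passed the filter and was not called, and the summed level was between 0.421 and 6.97 CPM, with *lambdaTry* at 0 in every library. The tracheal and neuronal calls were also fewer with either >*bam* RNAi library left out, again as for all genes tested. Scaled on somatic markers, 1 and 0 were called higher, beside 908 of all 9115 genes.

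Among somatic ovary markers, 7 of 13 were called higher and 1 (*tj*) lower by edgeR, beside 25.4% and 25.0% of all genes tested. Their median log2 fold change was 0.53, and it was 0.70 and 0.45 without >*bam* RNAi replicate 1 and replicate 2. In both of these fits fewer of the markers were called higher, as were fewer of all genes tested. *zfh1* was at 1.14, *bab2* and *Fas3* at 0.88 and 0.86, and *tj*, which marks the somatic cells intermingled with the germline, at -1.08. *abd-A* amounted to 13.1% and 13.4% of the summed CPM of this list without *aramis* RNAi and 16.5% and 20.6% with it. The sum itself was 2173 and 2021 CPM against 2949 and 2659 CPM. Against *tj*, the marker called lower, *abd-A* had 0.523 and 0.432 TPM per TPM without *aramis* RNAi and 1.82 and 2.50 with it. Against *Fas3*, which was called higher, it had 0.391 and 0.382 without *aramis* RNAi and 0.407 and 0.499 with it. The size of such a ratio thus depends on the marker. Germline markers were called lower for 12 of 13, beside 25.0% of all genes tested. Their sum was 2474 and 2508 CPM against 1452 and 1212 CPM. Of this sum, *tud*, the marker called higher, held 602.4 and 613.2 CPM against 823.7 and 652.5 CPM. Library totals are shared by all genes, so that a lower germline share raises the CPM of other genes, and the part of this in the Hox values was not tested beyond the scalings above.

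**Figure D5:**
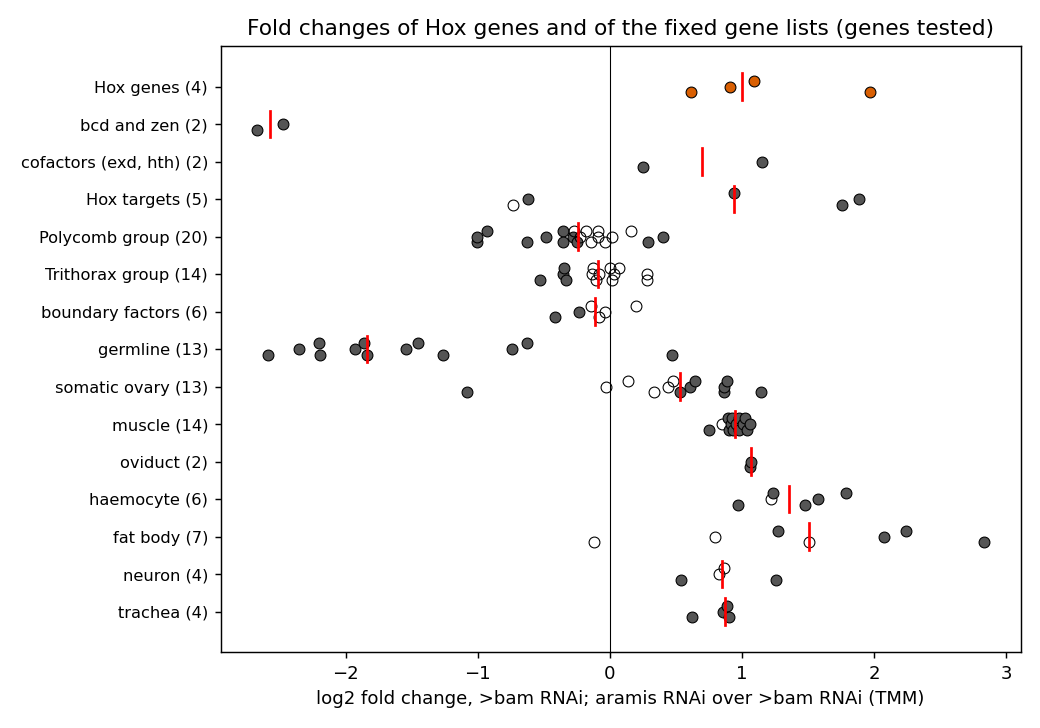
Log2 fold change in edgeR with TMM, >*bam* RNAi; *aramis* RNAi over >*bam* RNAi, of each tested gene of the lists; numbers in brackets are genes tested, red bars are medians and filled gray points passed an adjusted p of 0.05. The 4 tested Hox genes (orange) run from 0.61 to 1.97, muscle markers from 0.75 to 1.06 and germline markers from -2.59 to 0.47.

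The Hox cofactor *hth* rose with *aramis* RNAi. Its counts were 343 and 428 without *aramis* RNAi and 691 and 737 with it, or 1.15 in log2 fold change (SE 0.107, edgeR adjusted p = 4.45e-04). It passed the threshold under all 10 alternatives, with 0.69 when scaled on somatic markers. *exd* had 2712 and 3073 against 3020 and 2714 counts, which overlap as raw counts but not in normalized CPM (log2 fold change 0.25, SE 0.0820, edgeR adjusted p = 0.0428). That call held under 3 of 10 alternatives, and *exd* was at -0.21 when scaled on somatic markers, so no direction is given for it.

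Of 10 genes listed as known Hox targets in other tissues, 9 matched an identifier and 5 passed the filter. Beside them, 25.4% of all genes tested were called higher and 25.0% lower. *dpp* (log2 fold change 0.94, SE 0.0926, edgeR adjusted p = 5.07e-04), *rpr* (1.76) and *rho* (1.88) were higher with *aramis* RNAi, and *tsh* (-0.62) was lower, while *y* at -0.73 was not called. They encode a BMP ligand, an activator of apoptosis, a protease that releases EGFR ligands and a zinc finger factor of the trunk. *dpp* passed under all 10 alternatives. *rpr* lost its call without either >*bam* RNAi library, *rho* without >*bam* RNAi replicate 1, and *tsh* with DESeq2, without either >*bam* RNAi library and without >*bam* RNAi; *aramis* RNAi replicate 2. *Dll*, *fkh*, *salm* and *kn* had at most 8 counts in a library and were not tested.

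Chromatin regulators of Hox genes were called in part, against 25.4% of all genes tested called higher and 25.0% called lower. Of 20 Polycomb group genes, all tested, 2 were called higher and 9 lower, with a median log2 fold change of -0.24, against -0.02 for all genes. The largest changes were those of *jing* (-1.01, SE 0.0866, edgeR adjusted p = 3.6e-04), *Pcl* (-1.01) and *Caf1-55* (-0.93), which belong to or act with Polycomb repressive complexes, followed by *esc* (-0.63) and *Sfmbt* (-0.48). *Pc* itself, which binds methylated histone H3, had 318 and 317 counts against 232 and 250 and was not called. The 2 called higher, *Su(z)2* at 0.40 and *Scm* at 0.29, were not called with the libraries scaled on their totals or on somatic markers. Under these scalings 13 and 17 of the 20 genes were lower, beside 3346 and 4297 of all 9115 genes tested. DESeq2 called 1 higher and 5 lower, beside 2101 higher and 1698 lower of all 13308 genes it tested. *jing*, *Pcl* and *Caf1-55* were called lower under all 10 alternatives. Of 14 Trithorax group genes, 4 were called lower by edgeR (*wds*, *kto*, *mor* and *Bap60*) and 10 were not called, a share near the 25.0% of all genes, with a median of -0.09. Scaled on library totals, 6 of them were lower, and on somatic markers 12, beside the same 3346 and 4297 of all 9115 genes. Of 6 factors of boundary elements, which separate the regulatory domains of the bithorax complex, 2 were lower (*mod(mdg4)* at -0.41 and *Cp190* at -0.24), beside 25.0% of all genes. *Cp190* was called under 2 of 10 alternatives, both of them scalings, and *mod(mdg4)* lost its call without either >*bam* RNAi library. The lower germline markers given above moved with them, and their part was not tested.

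By the shape of its 4 values of log2(CPM + 1), centred on their mean, *abd-A* was most like *Smyd4-3*, *CG13117*, *Scgalpha*, *CG1572* and *CG14196* among 8819 genes with a mean of at least 1 CPM. Their Euclidean distances were between 0.0270 and 0.0491 on the log2 scale. *Scgalpha*, a subunit of the sarcoglycan complex of muscle membranes, had 16.4 and 14.9 CPM without *aramis* RNAi and 28.4 and 31.6 CPM with it. All of these genes were picked by this shape, so no link to a tissue is read from their values. *Antp* ranked at 383 by this measure and *Abd-B* at 1319, with distances of 0.253 and 0.523. *Abd-B* was most like *twf*, *Gapdh1*, *Vha55*, FBgn0028665 and *Eno*, with distances between 0.0574 and 0.0861. *Gapdh1* and *Eno* encode glycolytic enzymes, *Vha55* a subunit of the vacuolar ATPase and *twf* an actin-binding protein. With 4 libraries many genes share a shape, and 203 genes lay within 0.2 of *abd-A* and 107 within 0.2 of *Abd-B*.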

How the data were processed

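Files deposited by the authors give raw counts of reads for 17023 FlyBase identifiers in each of 4 libraries. The submitters' processing notes name HISAT2 2.1.0, featureCounts 1.4.6, DESeq2 1.24.0 and dm6. The annotation release, the strand setting behind a directional kit and the treatment of multiply mapped reads are not given in the sources used here. RNA was fragmented for 13 min. Groups and replicate numbers were taken from the sample titles, in which the >*bam* RNAi libraries are named Bam (ii). Symbols, positions and exon lengths came from Ensembl release 115 on BDGP6 (dm6 coordinates), which covers 16647 identifiers. The other 376, with between 6.14% and 6.32% of the counts, stayed in the fits but have no TPM. Of 138 list entries, *wg*, *wupA*, *para* and *btl* had no matching identifier and were not used here.

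All genes were fitted together in edgeR 4.0.16 under R 4.3.3 (TMM, filterByExpr with a minimum count of 10, quasi-likelihood test, no replicate block, Benjamini-Hochberg adjustment over 9115 genes, threshold 0.05). Standard errors are those implied by the F statistic. The functions were tested on simulated data. The same differences were also computed with DESeq2 1.42.0, with RLE normalization, without the filter, with a replicate block, with libraries scaled on somatic markers (geometric mean of count + 0.5) or on their totals, and without each library in turn, and TPM with the longest transcript as length. Tables were handled with Python 3.11.15 and pandas 2.3.3. Genes named are the 8 Hox genes, *ais*, *bam*, the genes inside the complexes with at least 10 counts in all, up to 5 called genes with the largest change per list, all members of lists of 4 or fewer, and 5 genes nearest in shape to *abd-A* and *Abd-B*. Other list members, and genes of few counts in the complexes, were named after their values were seen. The members and lists were chosen with earlier results of these data known. No Hox protein or promoter sequences were used here.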

Additional observations from a re-analysis of the deposited data

How the results depend on the processing

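Over the 10 alternatives the direction of the log2 fold change of *Antp*, *Ubx*, *abd-A* and *Abd-B* did not change. These fits reuse the libraries and the contrast that chose the set. The steady direction and the Hox genes called in this section are therefore descriptions. With DESeq2 *Ubx* was at 2.03 and no longer past the threshold. Scaled on somatic markers, 2 Hox genes were called higher, *Ubx* was at 1.51 and *Abd-B* at 0.16, both no longer past it, and 908 genes were called higher and 4297 lower in all. With the replicate number as a block, which the titles share between genotypes, *Antp* was at 0.91, *Ubx* at 1.99, *abd-A* at 1.09 and *Abd-B* at 0.60, 4 Hox genes were called, and 2257 genes were called higher and 2173 lower. Across genes, libraries with the same number deviated from their genotype means with a correlation of 0.0391, and no pairing was detected. Among the genes of the lists, the replicate block ended the calls on *exd* (adjusted p = 0.0614), *Cp190*, *phol* (0.0653) and *hh* (0.0538), leaving 8 Polycomb group genes lower and 6 somatic ovary markers higher, and added calls on *Syn* (higher, 0.0447) and *Amy-p* (lower, 0.0181). Leaving out a library leaves 1 in a genotype, which is assumed to vary like the others, and the number of genes called ran from 685 to 1991 higher and from 558 to 1724 lower, with fewer samples in the fit. The number of Hox genes called ran from 1 to 3, and the log2 fold change from 0.89 to 0.92 for *Antp*, 1.62 to 2.46 for *Ubx*, 0.98 to 1.21 for *abd-A* and 0.38 to 0.83 for *Abd-B*. The median of the Trithorax group genes ran from -0.16 to 0.0081 and changed sign without >*bam* RNAi; *aramis* RNAi replicate 2. Polycomb group genes called lower ran from 3 to 7, Trithorax group genes from 0 to 4 and boundary factors from 0 to 1. The cause was not tested. List medians moved by more than their genes' median standard error for 14 of 14 lists when scaled on somatic markers and for 10 on library totals, and for none with DESeq2, RLE, no filter or the block. The depth limits *Ubx* and *lab*, with at most 15 counts in a library, and leaves *pb*, *Dfd* and *Scr* undetectable.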
